A study of Mus musculus with 12 samples.

Results

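Livers of F1 hybrid mice were compared with livers of the MSM strain by the positions at which histone H3 acetylated at lysine 9 (H3K9ac) was enriched. The comparison used 4 of the 12 libraries of the series, namely 2 H3K9ac libraries of F1 hybrids and 2 of MSM mice, and each library had a peak list of its own. The F1 hybrid BM had a B6 mother and an MSM father, and the F1 hybrid MB had an MSM mother and a B6 father, so that both carried a B6 and an MSM genome, and each cross was represented by 1 library, for which the number of mice is not given in the sources used here. MSM (MSM/Ms, replicates 1 and 2) is an inbred strain derived from another mouse subspecies than B6 (C57BL/6J), the reference strain, whose 2 adult liver lists served here as an outside readout. The labels give adult age and no treatment for any group, and the same antibody was used throughout. The 2 MSM libraries came from different individuals, while the F1 group joins the 2 directions of the cross, so that its spread holds parent of origin as well as mouse and library. Overlapping peaks of the 4 lists were merged into 24148 union regions. A region was called gained when both F1 lists and neither MSM list had a peak in it, and lost in the reverse case. This gave 603 gained regions (2.5% of all) and 918 lost regions (3.8%), while 9034 regions had a peak in all 4 lists and are called shared.

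H3K9ac is placed on nucleosomes by acetyltransferases that are recruited with active transcription factors, and it marks the starts of transcribed genes as well as active enhancers away from them. The liver consists mainly of hepatocytes, which carry out the metabolism of sugars, lipids and foreign compounds and secrete most plasma proteins. An F1 hybrid carries both parental genomes in the same nucleus, where both are read by the same set of transcription factors. In bulk tissue, more cells with a mark and more mark per cell cannot be told apart.

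The tissue label was checked against marker genes. Of the 8 hepatocyte markers, 7 had a peak within 1 kb of the gene start in each of the 4 lists, and Hnf4a had none at its annotated start. Markers of Kupffer cells, cholangiocytes, lymphocytes with neutrophils, and erythroid cells (10, 6, 12 and 6 genes) had no peak in any of the 4 lists. Endothelial markers had a peak at 9 of 10 starts in F1 BM, 0 in F1 MB, 3 in MSM replicate 1 and 6 in MSM replicate 2, and stellate cell markers at 3, 1, 0 and 0 of 10. Xist, transcribed from the inactive X chromosome, had a peak in all 4 lists. The Y-linked genes Ddx3y, Uty, Eif2s3y and Kdm5d had no peak in any of them. Elsewhere on the Y chromosome peaks were listed, 9 in F1 BM, 1 in F1 MB, 8 in MSM replicate 1 and 4 in MSM replicate 2.

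The 2 F1 lists differed from each other more than the 2 MSM lists did. F1 BM held 20173 peaks over 12.3 Mb and F1 MB 13235 peaks over 7.46 Mb, whereas the MSM lists held 17310 and 17584 peaks over 9.66 and 9.69 Mb. The mean difference in peak number, F1 minus MSM, was -743 against a pooled SD of 3472, so it lay within the spread between libraries (two-sided exact permutation p = 1, n = 2 and 2). The median fold enrichment over background was 3.38 in F1 BM, 4.57 in F1 MB, 4.93 in MSM replicate 1 and 5.0 in MSM replicate 2. Both F1 values lay below both MSM values, the most that 4 libraries can show (exact permutation test, two-sided p = 0.333, below which 2 against 2 libraries cannot go). The base-pair overlap (Jaccard index, shared length over total length) was 0.496 between the 2 F1 lists and 0.622 between the 2 MSM lists, and it ranged from 0.533 to 0.551 between an F1 and an MSM list. The F1 lists thus overlapped each other less than either overlapped MSM.

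The regions that carried the clearest presence or absence away from gene starts are shown first as sequence. Each window is 300 bp of the reference genome (GRCm38, plus strand), centred on the summit of the strongest peak. Every CpG dinucleotide is in capitals, and CpG content is described further on. The 3 gained windows are chr5:127638010-127638309 in an intron of Glt1d1, chr2:27581842-27582141 outside annotated genes with Wdr5 as the nearest start at 66835 bp, and chr12:91695100-91695399 in an intron of Ston2.
Glt1d1 intron, gained: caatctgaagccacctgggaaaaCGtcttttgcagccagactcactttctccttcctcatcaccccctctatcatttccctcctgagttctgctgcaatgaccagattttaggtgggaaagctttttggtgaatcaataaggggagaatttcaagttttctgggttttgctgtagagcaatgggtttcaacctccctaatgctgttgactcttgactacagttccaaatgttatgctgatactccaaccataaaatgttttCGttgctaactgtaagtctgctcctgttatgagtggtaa
Wdr5 side, gained: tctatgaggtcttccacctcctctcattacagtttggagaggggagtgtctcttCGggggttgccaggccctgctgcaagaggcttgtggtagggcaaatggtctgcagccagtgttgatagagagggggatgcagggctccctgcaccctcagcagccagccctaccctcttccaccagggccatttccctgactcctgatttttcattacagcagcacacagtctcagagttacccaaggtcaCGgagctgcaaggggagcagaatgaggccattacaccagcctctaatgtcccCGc
Ston2 intron, gained: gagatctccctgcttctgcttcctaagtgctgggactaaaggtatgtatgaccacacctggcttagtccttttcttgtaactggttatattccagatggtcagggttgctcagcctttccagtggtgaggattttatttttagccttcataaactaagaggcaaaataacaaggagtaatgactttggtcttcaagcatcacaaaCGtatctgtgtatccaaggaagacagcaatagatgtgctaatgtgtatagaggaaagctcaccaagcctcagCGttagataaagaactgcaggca
The 3 lost windows are chr7:30310267-30310566 in an intron of Alkbh6, chr6:72061326-72061625 outside annotated genes with St3gal5 as the nearest start at 36116 bp, and chr1:100231635-100231934 in an intron of Cntnap5b.
Alkbh6 intron, lost: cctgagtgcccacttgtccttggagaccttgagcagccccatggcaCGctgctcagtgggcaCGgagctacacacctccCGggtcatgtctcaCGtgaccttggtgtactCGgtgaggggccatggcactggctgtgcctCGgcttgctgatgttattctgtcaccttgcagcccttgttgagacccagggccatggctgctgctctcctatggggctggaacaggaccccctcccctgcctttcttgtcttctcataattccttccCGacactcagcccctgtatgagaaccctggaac
St3gal5 side, lost: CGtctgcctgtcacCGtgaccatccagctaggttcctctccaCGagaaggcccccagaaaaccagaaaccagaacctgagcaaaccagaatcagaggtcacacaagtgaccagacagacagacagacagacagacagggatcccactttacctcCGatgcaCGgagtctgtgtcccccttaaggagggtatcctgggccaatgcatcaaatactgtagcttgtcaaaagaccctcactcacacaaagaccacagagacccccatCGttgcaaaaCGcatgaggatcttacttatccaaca
Cntnap5b intron, lost: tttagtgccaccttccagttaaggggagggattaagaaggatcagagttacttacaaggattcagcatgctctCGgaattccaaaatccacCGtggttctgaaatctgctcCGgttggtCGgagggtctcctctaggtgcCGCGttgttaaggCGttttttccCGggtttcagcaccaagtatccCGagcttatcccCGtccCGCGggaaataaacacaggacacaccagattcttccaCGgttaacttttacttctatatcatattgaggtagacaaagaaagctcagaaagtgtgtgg
The gained windows held 2, 3 and 2 CpG dinucleotides and the lost windows 7, 7 and 13. Over all regions away from starts the classes lay closer, with a median CpG observed over expected ratio of 0.23 for gained and 0.28 for lost regions. In the Glt1d1 intron, fold enrichment was 6.06 in F1 BM, 7.73 in F1 MB, 9.61 in B6 replicate 1 and 3.95 in B6 replicate 2, with no peak in either MSM list. In the Alkbh6 intron it was 8.39 and 8.04 in the MSM lists, with no peak in an F1 or a B6 list. The lost regions near St3gal5 (8.18 and 9.06) and in Cntnap5b (4.63 and 6.33) likewise had no B6 peak. Presence at these 4 loci was thus the same in the hybrid lists as in the B6 lists.

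To set the number of such regions against the same count for mixed pairs, the 4 lists were paired in the other 2 ways as well. Gained and lost regions together made 1521 regions that separated F1 from MSM. Pairing F1 BM with MSM replicate 1 separated 1226 regions (1001 and 225), and pairing F1 BM with MSM replicate 2 separated 1154 (1017 and 137). The F1 and MSM pairing thus gave the highest number of the 3 (exact test over the pairings, one-sided p = 0.333, which is the lowest that 3 pairings allow). It also did so with the same number of peaks in each list (1436 against 918 and 783), the same covered length, a stricter q, stricter presence, wider joining and a minimum cover. With the same number of peaks, gained regions outnumbered lost ones (740 and 696). In length, 0.534 Mb was covered by both F1 lists and neither MSM list and 0.585 Mb by both MSM lists and neither F1 list, together 7.13% of all covered sequence, against 5.85% and 5.29% in the other pairings. Away from gene starts, 820 regions separated F1 from MSM and 720 and 697 separated the other pairs, and at starts the numbers were 701, 506 and 457.

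**Figure D1:**
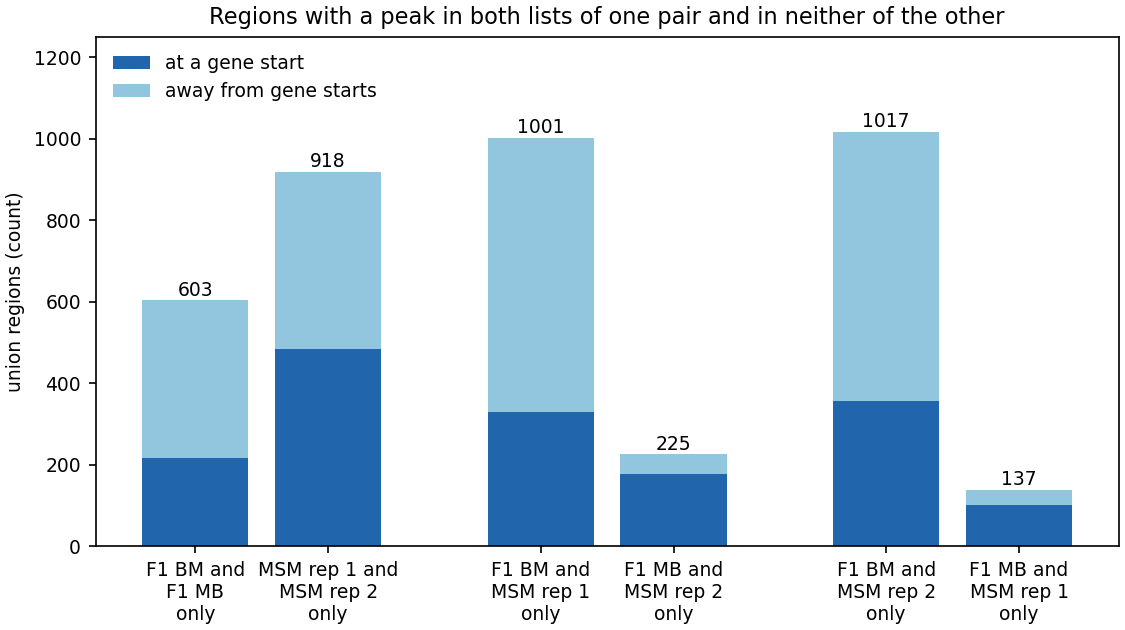
Number of union regions (y axis) with a peak in both lists of a pair and in neither list of the other pair, for the 3 ways of pairing the 4 lists, split into regions within 1 kb of a protein-coding gene start (dark) and away from starts (light). The F1 and MSM pairing gave 603 and 918 regions, while in the other pairings most regions (1001 of 1226 and 1017 of 1154) fell on the side that held the long F1 BM list.

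Gained and lost regions lay in different places. Of the gained regions, 217 (36.0%, 95% Wilson interval 32.3 to 39.9) lay within 1 kb of a protein-coding gene start, and of the lost regions 484 (52.7%, 49.5 to 55.9), compared with 66.8% of shared regions and 30.0% of regions found in 1 list. They were shorter than shared regions, with median widths of 470 bp, 388.5 bp and 835 bp. Their peaks were also weaker than shared ones, with a median fold of 3.30 and 3.93 at gained regions in F1 BM and F1 MB (4.2 and 5.03 at shared regions) and of 4.36 and 4.31 at lost regions in the MSM lists (5.99 and 6.14 at shared regions). Peaks near the calling threshold, with a -log10 q under 3, made up 2.82% and 9.45% of gained regions in the F1 lists and 8.61% and 6.10% of lost regions in the MSM lists. All autosomes and the X chromosome held regions of both kinds, from 1.92% to 3.64% of their union regions gained and from 2.16% to 5.18% lost. The Y chromosome held 14 union regions, of which 0 were gained and 2 were lost.

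The B6 lists had no part in choosing the regions. They held peaks at more of the gained than of the lost regions, most clearly away from gene starts. Of the 603 gained regions, 528 (87.6%, 84.69 to 89.96) had a peak in B6 replicate 1 and 243 (40.3%, 36.5 to 44.3) in B6 replicate 2. Of the 918 lost regions, 617 (67.2%, 64.1 to 70.2) and 104 (11.3%, 9.44 to 13.5) had one. Shared regions stood at 98.1% and 79.3%, and regions of 1 list at 51.7% and 8.65%. Away from gene starts, 83.9% of gained regions (79.9 to 87.3) but 44.0% of lost regions (39.4 to 48.7) had a peak in at least 1 B6 list, and at starts the shares were 94.9% and 88.6%. These shares moved when the lists were cut to equal size, which also changed which regions were gained or lost. There were 669 gained and 626 lost regions with equal numbers of peaks, and 432 and 480 with equal length. With equal numbers of peaks in all 6 lists the shares were 65.7% and 26.4% away from starts and 85.3% and 65.8% at starts. With equal length they were 71.2% and 30.2%, and 83.2% and 58.0%. Reads of all strains were mapped to the reference genome, that of B6, and the part of this in these shares was not tested. The intervals cover counting error only, and the B6 lists differ in length (22968 and 11619 peaks), but gained regions held the higher share in each B6 list, also with equal numbers of peaks or equal covered length in all 6 lists.

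**Figure D2:**
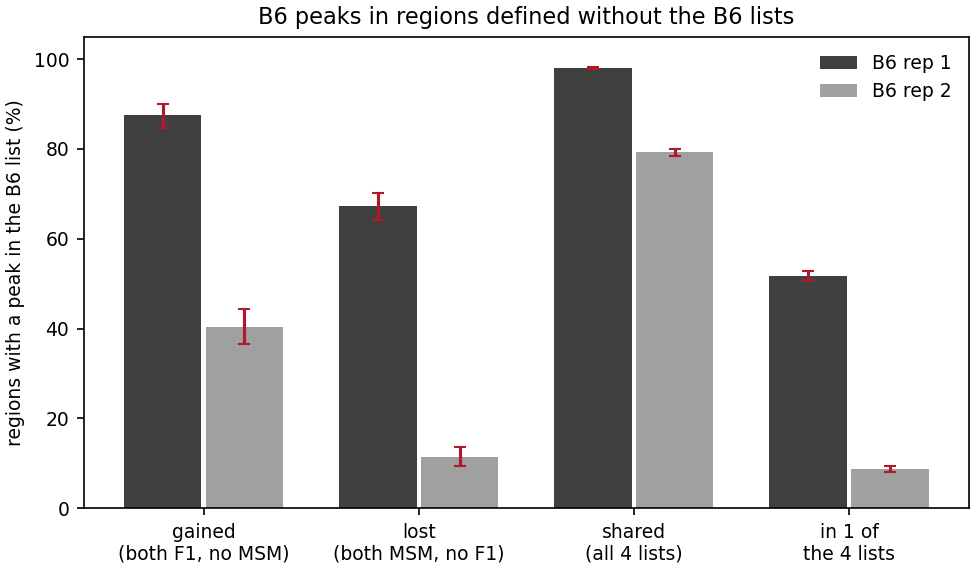
Share of regions (y axis, percent) with a peak in B6 replicate 1 (dark) or B6 replicate 2 (light) among gained, lost, shared and single-list regions, which were defined without the B6 lists. Bars are shares and red lines are 95% Wilson intervals, and gained regions (87.6% and 40.3%) lay above lost regions (67.2% and 11.3%) in both B6 lists.

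Regions could then be sorted by which parent had them. Of the gained regions, 241 (40.0%) had a peak in both B6 lists and 73 (12.1%) in neither, so that the latter were listed in the hybrids alone. The share in neither was 26.9% with equal numbers of peaks and 24.3% with equal length. Among those 73, 62 lay away from gene starts, such as the region in an intron of Gpat4, an enzyme of glycerolipid synthesis (chr8:23198618-23198939), with a fold of 3.12 in F1 BM and 5.46 in F1 MB. Cab39l held 3 hybrid-only regions within chr14:59441842-59445553, of which the best supported had folds of 3.48 and 5.64. Of the lost regions, 298 (32.5%) had no B6 peak and were thus listed in MSM alone, 243 of them away from gene starts. This share was 52.9% with equal numbers of peaks and 55% with equal length. Another 101 lost regions had a peak in both MSM and both B6 lists and in neither F1 list, and 74 of these lay at gene starts. The best supported of these was at Cyp51, followed by Klhdc3, Jak3, Khnyn and Aco1. At Khnyn, for example, fold enrichment was 5.29 and 5.98 in the MSM lists and 12.8 and 7.05 in the B6 lists. Counting every peak within 1 kb, the starts of Cyp51 and Jak3 had peaks in both MSM lists and neither F1 list. The starts of Klhdc3, Khnyn and Aco1 did not, so there only the region was lost.

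Some regions lay close to others of the same kind, and such groups are called clusters here. Of the gained regions, 114 (18.9%) lay within 10 kb of another gained region, and of the lost regions 108 (11.8%). The same share is not given for shared or all union regions, so these shares have no background and are a description. Joining peaks up to 500 bp left 327 gained and 563 lost regions in place of 603 and 918. Whether neighbouring regions were parts of a longer stretch was not tested. The largest gained cluster held 5 regions at chr5:127633038-127641430 beside Slc15a4, all of them with a peak in a B6 list. The largest lost clusters held 4 regions each, at chr6:72059939-72066697 near St3gal5, which makes a ganglioside, and at chr5:125465231-125477374 near Aacs, which activates acetoacetate for lipid synthesis. All 4 regions near St3gal5 and all 3 in the cluster at Pax8 lacked a B6 peak. Both were thus stretches of several kilobases with peaks in MSM alone.

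At gene starts, the 10 gained regions with the strongest support in both F1 lists belonged to Srp54b, Ceacam1, Srp54c, Cyp2c38, Ap1ar, Slc35g1, Ciao2b, Keg1, Nup85 and Rpl29. Srp54b encodes a copy of the signal recognition particle subunit that targets secreted proteins to the endoplasmic reticulum, and its region at chr12:55154990-55156242 had a fold of 5.04 in F1 BM, 7.48 in F1 MB, 10.6 in B6 replicate 1 and 6.33 in B6 replicate 2. Ceacam1, an adhesion receptor that takes part in insulin clearance by the liver, had the highest fold of the 10 in F1 BM and in both B6 lists (chr7:25476357-25477683), at 8.41 in F1 BM, 6.51 in F1 MB, and 17.4 and 11 in B6. Cyp2c38, a cytochrome P450 of drug and lipid oxidation, had folds of 5.58 and 6.61 in F1 and 7.87 and 5.16 in B6. The remaining starts had folds of 3.05 to 5.20 in F1 BM and of 5.87 to 7.78 in F1 MB. All 10 had a peak in B6 replicate 1 and 7 also in B6 replicate 2. Counting every peak within 1 kb, the starts of Ap1ar, Slc35g1, Ciao2b and Rpl29 did not separate F1 from MSM, so there only the region was gained. Srp54b and Srp54c, Ceacam1 and Cyp2c38 belong to families with closely similar copies in the genome, between which reads can be divided, so presence and absence at these starts is uncertain.

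The 10 strongest lost regions at gene starts belonged to Pfkl, Slbp, Pax8, Get4, Fam187b with Lsr, Dpysl2, Alkbh6, Cyp51, Mvd and Ptprm. Pfkl, the liver phosphofructokinase of glycolysis, had a fold of 7.19 in MSM replicate 1, 8.80 in MSM replicate 2 and 12.5 in B6 replicate 1 (chr10:78009408-78009770). Pax8, a transcription factor known from thyroid and kidney, had folds of 8.42 and 10.9 in the MSM lists and no peak in any F1 or B6 list (chr2:24473834-24475065). Get4, part of the machinery that inserts tail-anchored proteins into membranes, had the other of these regions without a B6 peak, with folds of 9.22 and 6.48, while an F1 list had another peak within 1 kb of its start. Lsr encodes a lipoprotein receptor of hepatocytes and shares its region with Fam187b, at folds of 5.73 and 8.0. Counting every peak within 1 kb, the starts of these 2 genes did not separate MSM from F1 either. Of these 10 regions, 8 had a peak in B6 replicate 1 but only Cyp51 in both B6 lists.

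**Figure D3:**
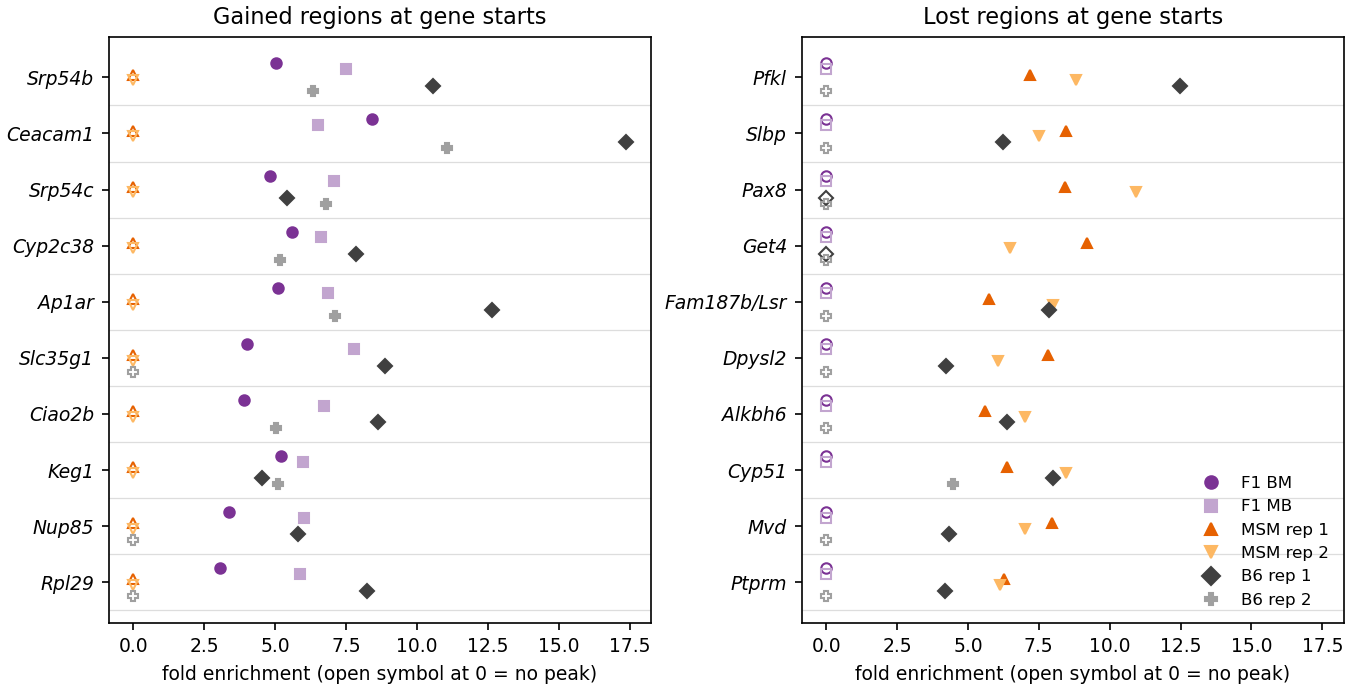
Fold enrichment over background (x axis) in each of the 6 lists at the 10 gained (left) and 10 lost (right) regions at gene starts with the highest support, 1 symbol per list, with open symbols at 0 where the list had no peak. Presence in F1 and absence in MSM, or the reverse, is how the regions were chosen, while the B6 symbols are an outside readout.

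Per gene, a gained region lay at 240 starts (2.63% of the 9124 starts with any peak) and a lost region at 544 (5.96%). Many of these starts kept another peak close by. A peak anywhere within 1 kb was present in both F1 lists and neither MSM list at 113 starts (1.24%), and in both MSM lists and neither F1 list at 309 (3.39%). The fixed gene lists showed where named liver functions fell. Of 43 genes of foreign compound metabolism, 3 were gained and 0 lost. These were Cyp3a13, Cyp4a14 and the carboxylesterase Ces2a, each with a peak in both B6 lists. Cyp4a14 and Ces2a belong to multigene families, so presence at their starts is uncertain, as for Cyp2c38. Cyp4a14, a fatty acid hydroxylase, had folds of 5.05 in F1 BM and 3.41 in F1 MB, against 10.1 and 7.48 in B6 and no MSM peak.

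Scd1, the desaturase that makes monounsaturated fatty acids, was gained with folds of 3.44 and 6.32 in F1 and 7.83 and 4.73 in B6. Hamp, which encodes the iron hormone hepcidin, was gained with folds of 4.42 and 5.51, and 7.95 and 5.10 in B6. Fgb, Hpx, Nudt7 and Tat had a gained region beside a region shared by all 4 lists, so their starts as a whole were marked in MSM too. Of the 25 antigen processing genes, 10 had no peak in any list, 2 were gained (H2-K1 at 4.29 and 5.27, H2-Q4 at 5.65 and 4.25) and 2 were lost (Tap1 and Psmb9, which share a start region, at 4.06 and 5.08 in MSM), where 2.63% and 5.96% of all starts with a peak were. The major histocompatibility genes are multigene families, and presence at their starts is uncertain in the same way. Impact, an imprinted gene of translation control, was gained at 3.16 and 4.82 in F1 and 5.61 and 5.41 in B6. Hgf, a growth factor of stellate cells, was gained at 3.88 and 3.69 with no B6 peak.

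On the lost side, 4 of 23 hepatocyte transcription factors had a lost region at their start, Foxa1, Foxa2, Onecut1 and Onecut2, where 5.96% of all starts with a peak had one. Only Foxa1 had a peak in both MSM lists and in neither F1 list, as did 3.39% of all starts with a peak. Foxa1 had no F1 peak at its start (5.14 and 6.56 in MSM, 5.76 in B6 replicate 1), while the other 3 also held a region shared by all 4 lists. Pklr, the liver pyruvate kinase, had folds of 6.46 and 3.99 in MSM and no F1 peak, and Ehhadh, of peroxisomal fatty acid oxidation, 3.34 and 3.73. Selenbp2, a male-biased liver gene, had a lost region at 3.41 and 5.44 with no B6 peak. Igfbp2 and Gapdh had a lost region beside other peaks, and the lost region at Trappc9, an imprinted gene, had folds of 4.8 and 3.99.

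Several of the lost starts belonged to cholesterol synthesis. The pathway starts from acetyl-CoA, passes through mevalonate and squalene and ends in cholesterol, and hepatocytes switch its genes together by sterol supply. Cyp51, the lanosterol demethylase, had folds of 6.38 and 8.46 in MSM, 7.99 and 4.47 in B6 and no peak in either hybrid (chr5:4103502-4104757). Mvd, which makes isopentenyl diphosphate, had folds of 7.97 and 7.01 in MSM, 4.34 in B6 replicate 1 and none in the hybrids (chr8:122442454-122443384). Sqle, squalene epoxidase, had 7.60 and 4.35 in MSM and no peak in a hybrid or B6 list. Sqle and Lss were on the fixed list, Cyp51 and Mvd entered by rank, and a list of 23 genes of cholesterol synthesis and its control was then added after these values were seen, so its counts are a description.

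Of these 23 genes, 22 had a peak at the start in MSM replicate 1 and 21 in MSM replicate 2, compared with 16 for F1 BM and 12 for F1 MB. B6 had 19 and 14. The counts include Cyp51, Mvd, Sqle and Lss, whose lost regions led to the list, so the lower hybrid counts in part restate that choice. Without these 4, and chosen after the data were seen, 16 of 19 genes had a peak in F1 BM and 11 in F1 MB. MSM had 18 and 17 of these 19, and B6 had 16 and 13. With the same number of peaks in all 6 lists, these 19 gave 12 and 11 in F1, 18 and 17 in MSM, and 13 and 13 in B6. Over all protein-coding genes the numbers were 7728 in F1 BM, 6935 in F1 MB, 7784 in MSM replicate 1 and 7930 in MSM replicate 2. With the lists cut to the same number of peaks, the hybrids had 12 and 12 of the 23 genes, MSM 22 and 21, and B6 15 and 14. Mvk, Mvd, Sqle and Cyp51 lacked a peak in both hybrids and had a peak in both MSM lists. Fdps, Fdft1, Tm7sf2, Msmo1 and Nsdhl had a peak in F1 BM and both MSM lists and none in F1 MB. At Msmo1, a sterol oxidase, the folds were 4.9 in F1 BM and 10.1 and 8.72 in MSM. At Srebf2, the transcription factor that drives the pathway, all 4 lists had a peak, with folds of 3.12 and 3.8 in F1 and 9.61 and 7.49 in MSM. Insig1, which holds back the pathway when sterols are plentiful, had uncentred folds of 9.29 and 9.08 in F1 and 9.0 and 10.4 in MSM, and on the centred log2 scale 1.14 and 0.85 against 0.59 and 0.76. Srebf2 lay lower in F1 on both scales (centred -0.43 and -0.41 against 0.68 and 0.29). The group was thus uneven, with 11 genes at a region shared by all 4 lists (median level difference 0.11 on the centred log2 scale) and 6 at a lost region, 4 of which led to the list (5.96% of all starts with a peak were at one).

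**Figure D4:**
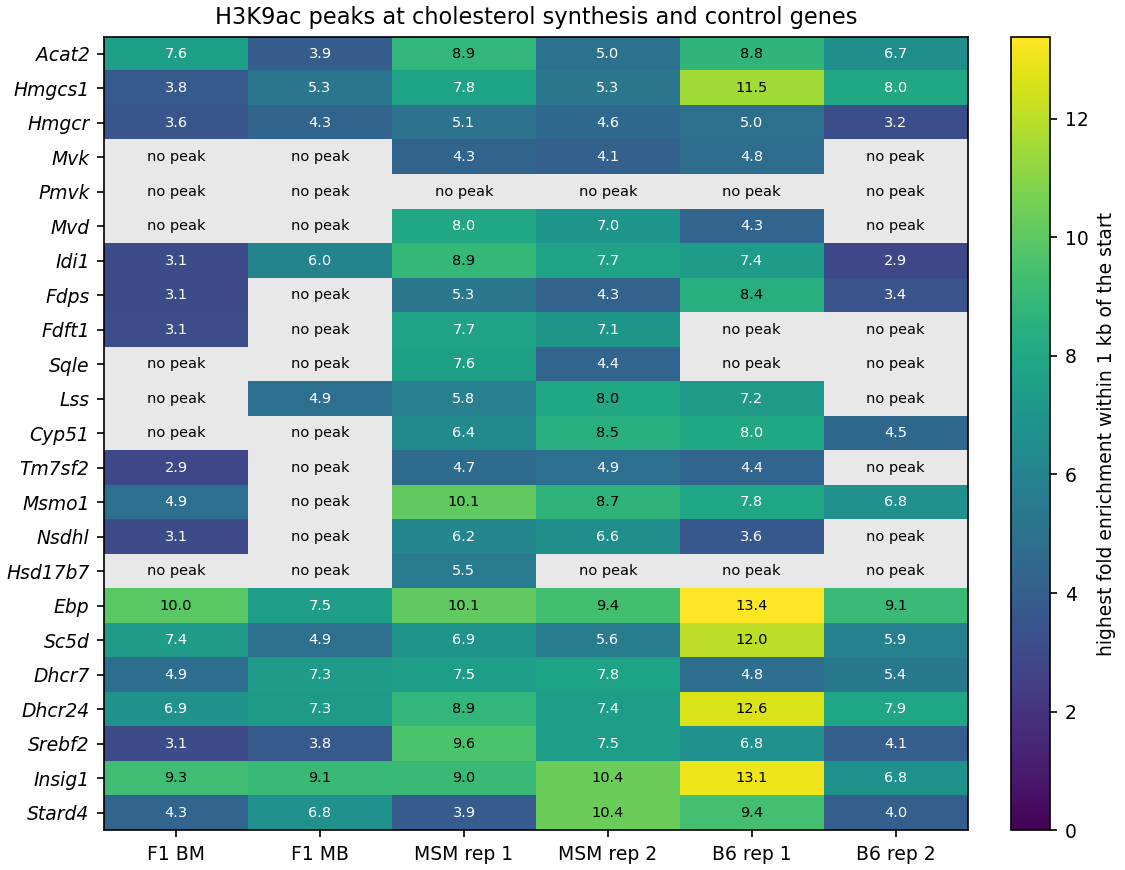
Highest fold enrichment within 1 kb of the gene start (colour and number) for 23 genes of cholesterol synthesis and its control (rows, in pathway order) in the 6 lists (columns), grey where the list had no peak. The MSM columns have 22 and 21 filled cells and the F1 columns 16 and 12.

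In the 9034 shared regions, the level of the mark was compared as log2 fold enrichment, each list centred on its own median (4.2 in F1 BM, 5.03 in F1 MB, 5.99 and 6.14 in the MSM lists, as fold). No region was called at an adjusted p under 0.05 (limma, Benjamini-Hochberg), 0% higher and 0% lower in F1, and 538 regions (5.96%) had an unadjusted p under 0.05. With -log10 q in place of the fold, 8 regions were called, 7 of them higher in F1. In 1613 regions (17.9%) both F1 values lay above both MSM values and in 1506 (16.7%) below, 3119 together, against 2946 and 2969 in the other 2 pairings of the lists. Without centring, 279 regions lay higher and 4227 lower. The length under peaks within shared regions also gave no call (limma, 0% in either direction, 433 longer and 296 shorter at an unadjusted p under 0.05), with 18.6% of regions longer and 17.3% shorter in F1 without overlap. Differences of level and length in shared regions thus did not pass the test with 2 libraries a group.

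The largest difference of level at a gene start was at Pzp, which encodes the plasma protease inhibitor pregnancy zone protein (chr6:128525689-128526707). Fold enrichment was 10.8 in F1 BM, 8.63 in F1 MB, 3.8 in MSM replicate 1 and 4.6 in MSM replicate 2, a centred log2 difference of 1.61 (SE 0.36, adjusted p = 0.0937, limma). The region at Kng2, a kininogen precursor, followed at 1.56 (SE 0.36, adjusted p = 0.0937, limma), with folds of 9.91, 9.96, 6.04 and 3.26. Its MSM peaks lay more than 1 kb from the start. Kng2 is therefore also among the 113 starts with a peak in both F1 lists and neither MSM list. In both regions the F1 values lay above the MSM values, and both regions passed the threshold when -log10 q was used instead (limma, adjusted p = 0.0195 and 0.0212). Ypel5, Slc19a2, a thiamine transporter, and Canx, the chaperone calnexin, came next at 1.4, 1.36 and 1.28. On the lower side stood Banp (-1.29), Necap1 (-1.26), Ddx23, a splicing helicase (-1.23), Parva (-1.18) and Bud13 (-1.16). At Necap1 the folds were 4.46 and 5.08 in F1 against 16.0 and 14.1 in MSM. These 8 starts had adjusted p-values of 0.284 to 0.58 and are given as values only.

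Hepatocyte markers had the highest median level difference of the gene lists, whereas the list of hepatocyte transcription factors had a median of -0.09 (7 above 0 and 11 below). Of these factors 5 lay higher and 2 lower without overlap, and relative to all genes the sign of their median turned without F1 MB (0.20), without MSM replicate 1 (0.02) and with -log10 q (0.08). The median over the 7 markers in shared regions was 0.56 on the centred log2 scale, compared with -0.02 over all 5809 genes at a shared region, and all 7 differences were above 0. On that centred scale, both F1 values exceeded both MSM values in 6 of the 7, whereas this held for 14.5% of all genes (18.5% the other way). Without centring, 279 of the 9034 shared regions lay higher in F1 without overlap and 4227 lower. At Cyp2e1, an ethanol-oxidising cytochrome, the centred log2 levels were 1.19 and 1.18 in F1 and 0.73 and 0.52 in MSM. Its uncentred folds overlapped, at 9.59 and 11.4 in F1 and 9.91 and 8.82 in MSM. At Alb, serum albumin, they were 0.67 and -0.29 in F1 and -0.52 and -0.68 in MSM. Cps1, the entry enzyme of the urea cycle, had 1.17 and 0.96 against 0.73 and 0.13. Tat, a tyrosine-degrading enzyme, overlapped, with 0.58 and 0.48 in F1 and -0.83 and 0.57 in MSM. No single marker passed the test. Relative to all genes the list's median stayed positive in 11 of 11 alternatives (0.42 to 0.73). The alternatives without centring and without a trended variance could not change this median. With 6 of 7 markers free of overlap, leaving out a library could scarcely turn its sign.

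The other liver lists spread more widely. They are not separate from the markers. Alb, Apoa1 and Ttr are also in the secreted list, Cps1, Tat and Pck1 in central metabolism, and Cyp2e1 in foreign compound metabolism. Medians were 0.26 for foreign compound metabolism (20 of 25 above 0), 0.20 for central metabolism (20 of 29), 0.09 for secreted proteins (22 of 34) and 0.08 for lipid and sterol genes (16 of 29). Relative to regions of like GC content these medians were 0.12, 0.14, 0.01 and 0.09. Within the lipid list, Cyp7a1, the rate-limiting enzyme of bile acid synthesis, had the highest value (1.02) and Srebf2 the lowest (-0.90). In the secreted list, 11 of 34 genes lay higher and 6 lower in F1 without overlap, compared with 14.5% and 18.5% of all genes at a shared region. Clock genes had a median of -0.23 (3 of 10 above 0), which turned to 0.04 relative to all genes without MSM replicate 1, and reference genes used by every cell -0.13 (7 of 16). Of the reference genes, Rps18, Rps6, Psma1, Psmd1, Rpl8 and Uqcrc1 lay lower in F1 without overlap, and the list held 6 lower and 2 higher of 16, compared with 18.5% and 14.5% of all genes at a shared region. Without F1 BM, the medians for foreign compound metabolism, secreted proteins and lipid genes relative to all genes fell to -0.05, -0.09 and -0.01. That for central metabolism stayed above 0, at 0.12 without F1 BM and 0.46 without F1 MB. The median for lipid genes also turned below 0 without MSM replicate 2 (-0.03).

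**Figure D5:**
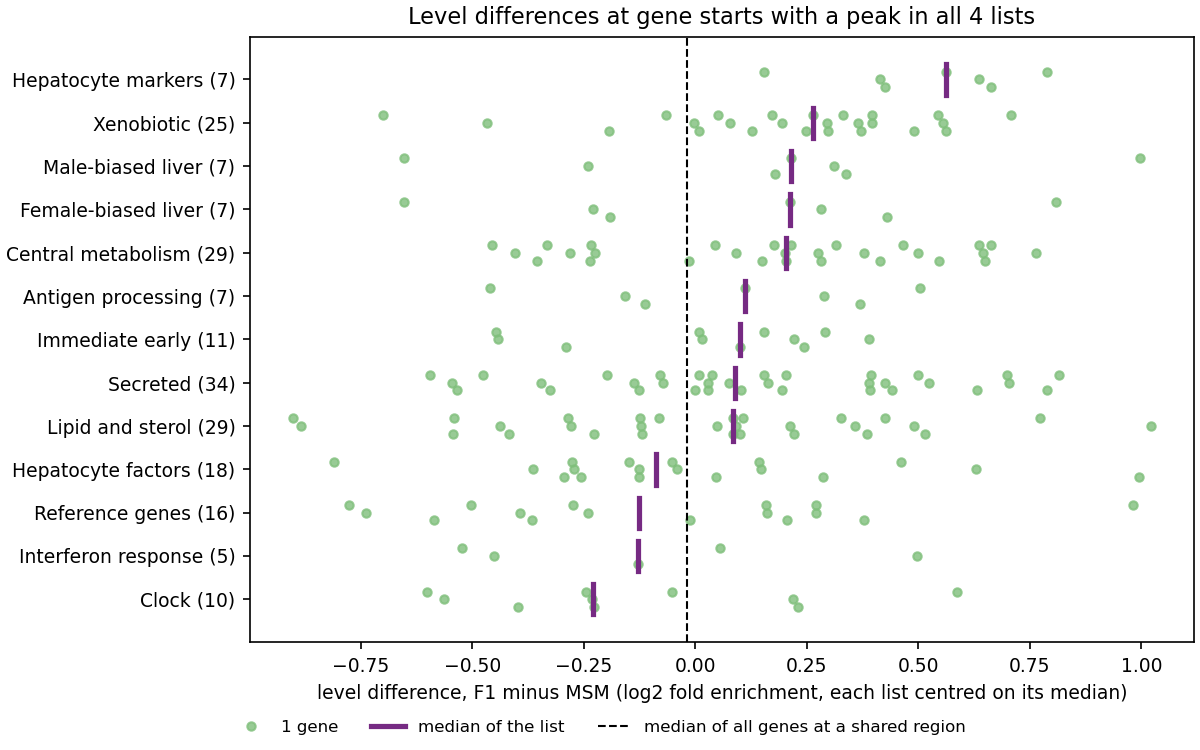
Difference of centred log2 fold enrichment, F1 minus MSM (x axis), at gene starts with a peak in all 4 lists, 1 point per gene, for 13 gene lists with the number of genes in brackets. Purple bars are list medians and the dashed line is the median of all 5809 genes (-0.02), and the 7 hepatocyte markers all lie above 0.

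Base composition moved with these differences. The 300-bp windows of gained regions had a median GC content of 48.0% and those of lost regions 56.7%, with a CpG observed over expected ratio of 0.32 and 0.54. At gene starts the GC medians were 51.0% for gained, 63.0% for lost and 60.0% for shared regions, and away from starts 46.5%, 51.0% and 50.3%. The CpG ratio at starts was 0.55 for gained, 0.72 for lost and 0.72 for shared regions, and away from starts 0.23, 0.28 and 0.32. Across 5 classes of all union regions by GC, of equal size, the share gained fell from 3.89% in the lowest to 0.890% in the highest, and the share lost rose from 1.80% to 5.63%. In shared regions the median level difference was 0.18 in the lowest GC class and -0.06 in the highest (Pearson r = -0.24 over 9034 regions, which share 4 libraries and are no replicates). The 2 hybrids ran in opposite directions, since the centred level fell from 0.17 to -0.17 in F1 BM and rose from -0.17 to 0.22 in F1 MB, while MSM replicate 1 rose from -0.17 to 0.09 and MSM replicate 2 from -0.15 to 0.11. The hepatocyte markers had a median GC content of 41.7%, and their median difference relative to regions of the same GC class was 0.39. The part of base composition in the counts of gained and lost regions was not tested.

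Short sequence words were counted in the same windows on both strands, each word separately and allowing overlaps. The GC box GGGCGG stood in 29% of gained and 47.9% of lost windows at gene starts, and in 37.1% of all start windows. The forkhead word TGTTTAC stood in 4.15% of gained and 1.45% of lost start windows, with 2.35% over all, and away from starts in 4.15% of gained, 4.15% of lost and 4.34% of all windows. The AP-1 word TGACTCA stood in 5.96% of gained and 5.30% of lost windows away from starts, compared with 4.96% of all. The E-box CACGTG was found once in the lost Alkbh6 window printed above, and no searched word was found in the other printed windows. The words for C/EBP (TTGCGCAA and TTGCACAA), HNF4A (CAAAGTCCA) and HNF1 (GTTAATNAT) stood in at most 1.84% of gained or lost windows, compared with 0.237% to 0.916% of all windows. Windows made up by 50% or more of repeat-masked bases were 9.07% of gained and 5.99% of lost windows away from starts, and 5.87% of all.

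Arcn1, which encodes a coatomer subunit, and Nnt, a mitochondrial transhydrogenase, are 2 loci that the study followed up, and both had peaks in all 4 lists. At Arcn1 the main peak reached a fold of 4.95 in F1 BM, 7.42 in F1 MB, 9.31 in MSM replicate 1 and 4.65 in MSM replicate 2. A further peak upstream of the start was present in F1 BM (fold 2.43) and in the MSM lists (7.4 and 3.73), and none was listed there in F1 MB. The peak nearest to the Nnt start, which spanned it in F1 BM and MSM replicate 2 and lay just upstream in the other 2 lists, had folds of 2.35 in F1 BM, 3.49 in F1 MB, 4.09 in MSM replicate 1 and 5.72 in MSM replicate 2, uncentred, on which scale 4227 of the 9034 shared regions lay lower in F1 without overlap.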

How the data were processed

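H3K9ac ChIP-seq libraries (50 bp paired-end) were used as deposited peak lists, 1 per library. The submitters' processing notes name Trim Galore, HISAT2, SAMtools and MACS2 and the build mm10, whereas the study's methods name Bowtie 2, so the aligner is uncertain, and the peak caller's settings are not given in the sources used here. In each deposited list the authors' caller gave a fold enrichment over background, -log10 p and -log10 q values and a score derived from them. The lists hold no read counts, so depth is unknown, and 6 input libraries have no list of their own.

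Peaks overlapping by 1 bp were merged, and starts were those of protein-coding genes (GENCODE M21, within 1 kb). Sequences came from GRCm38. Levels were log2 fold enrichments, centred per list, and were tested with limma 3.58.1 (R 4.3.3, trended variance, Benjamini-Hochberg adjustment at 0.05). The test was checked on simulated data, in which every region had the same normal noise, set to the median spread within groups. It called 59% of 100 regions changed by 1 and 100% of 100 changed by 2 on the log2 scale. These shares hold for that noise only, and the real data may give fewer calls. Intervals are 95% Wilson intervals. Single values used exact permutation tests (scipy 1.17.1). Named were the 10 gained and 10 lost regions at starts and 5 and 5 away from them with the highest lower -log10 q (sequences for 3 and 3 without an exon), the 5 highest and 5 lowest levels without overlap, and members of the fixed lists in gained or lost regions. The alternatives were equal numbers of peaks, equal length, stricter q, joining, cover, other start definitions, other scalings and leaving out each library. Members and lists were chosen with earlier results of these data known, and p-values measure only the spread between these libraries. Some items are not reported here.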

Additional observations from a re-analysis of the deposited data

How the results depend on the processing

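Of 451 recomputed values, 339 kept their direction, their side of the threshold and their size within the spread or 1.5 times. Requiring a -log10 q of at least 5 in both lists with a peak left 302 gained and 466 lost regions (768 together), of which 109 and 250 lay at starts and 193 and 216 away from them. Joining peaks up to 500 bp gave 327 and 563 (890 together), with 106 and 279 at starts and 221 and 284 away. With equal covered length, 308 lost regions lay at starts. Leaving out a library turns a 2-list requirement into a 1-list requirement, and it gave 1046 to 4856 gained, 1419 to 3134 lost and 3658 to 6275 separating regions. At starts these were 422 to 1182 gained and 901 to 1405 lost, and away from them 624 to 3674 gained and 518 to 1729 lost. The highest gained counts came without F1 MB and the highest lost counts without F1 BM.

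The F1 minus MSM difference in peak number ran from -4212 without F1 BM to 2726 without F1 MB, that in length from -2.22 to 2.59 Mb, and that in the share of peaks at starts from -6.71 to 5.61 percentage points, so their signs rested on 1 library. With equal numbers of peaks in 6 lists, gained regions had a peak in B6 replicate 1, replicate 2 and both in 65.5%, 52.5% and 44.8% of cases and lost regions in 40.7%, 24.6% and 18.2%. With equal length, the gained shares were 35.6%, 74.1% and 34.0%, and the lost shares in the first 2 were 15.2% and 41.9%.

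With -log10 q, limma called 7 levels higher and 1 lower in F1, and leaving out a library gave 0 to 1 and 0. Without centring, 279 levels lay higher and 4227 lower without overlap. On the centred scale, leaving out 1 library gave 3368 to 3830 higher and 3079 to 3714 lower without overlap. For length, leaving out a library gave 0 to 72 and 0 to 15 limma calls, and 3072 to 4365 and 2849 to 4469 regions without overlap. Relative to all genes, leaving out a library gave list medians of -0.0476 to 0.472 for foreign compound metabolism, -0.0899 to 0.431 for secreted proteins, -0.0293 to 0.0707 for lipid genes, -0.156 to 0.201 for hepatocyte factors and -0.286 to 0.0395 for clock genes, so that each changed sign. Hepatocyte factors also changed sign with -log10 q (0.0756). The cause was not tested. The levels at the 10 named starts kept their direction in every alternative run for them. These starts were chosen for lack of overlap between F1 and MSM values, so leaving out a library could scarcely turn their sign. Pzp and Kng2 passed the threshold with -log10 q.

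No paired analysis was possible because the F1 libraries carry no replicate number. Differences in depth between libraries are unknown, and absence of a listed peak is not absence of the mark.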
